A study of Mus musculus with 16 samples.

Results

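Prevotellaceae, a family of anaerobic gut bacteria in the order Bacteroidales, were described across the colons of 16 mice of 4 groups from 16S rRNA gene counts. Every amplicon sequence variant (ASV, an exact 16S sequence that stands for a strain or a set of close relatives) whose deposited taxonomy placed it in the family was taken. This gave 12 of 1901 ASVs, with 87363 of 1543504 counts (5.66%). The members carried 4 genus names. Prevotellaceae_UCG-001 had 5 ASVs and 3.84% of all counts, Alloprevotella 4 ASVs and 1.35%, Prevotellaceae_NK3B31_group 1 ASV and 0.466%, and Prevotella 2 ASVs with 5 counts in all.

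The groups were MERTK-KO+DSS (MERTK-/- mice given 2.5% w/v dextran sulfate sodium in sterile drinking water for 7 days), MERTK-KO (MERTK-/- mice on sterile water), WT+DSS (wild-type mice given the same DSS) and WT (wild-type mice on sterile water). Each held 4 mice, and each library was labelled as a separate individual. All 16 mice had a C57BL/6J background, were kept free of specific pathogens and were used at 8 to 10 weeks of age, and on day 8 distal colon was taken 2 to 3 cm from the anus. The gene product, MERTK, is a receptor kinase of phagocytes that binds dying cells, and DSS is a polymer that injures the colon lining and is used as a model of colitis. The labels name no Cre driver for the MERTK-/- allele and no cages or litters, and 16S counts cannot show the genotype. Tissue was rinsed to remove feces, so the counts refer to what remained with the tissue.

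Each library held 96469 counts, so a count of 0 allows a share of up to 0.00311% (3 counts), which covers counting error only. Shares below are percentages of these counts. They do not give numbers of bacteria, so fewer Prevotellaceae and more of other bacteria cannot be told apart. P-values set a difference between groups against the variation between mice. An effect of cage and one of group cannot be told apart where mice of 1 group shared a cage.

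Prevotellaceae break down plant polysaccharides and ferment the sugars mainly to succinate, acetate and, in some members, propionate. In laboratory mice they live in the lumen and mucus of the large intestine, and some communities rich in the family have been linked to more severe DSS colitis. Alloprevotella is a genus with cultured species. UCG-001 and NK3B31_group are placeholder names for branches known largely from 16S sequences, so no function is given to their ASVs here.

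The family as a whole had its highest shares in MERTK-KO+DSS colons and its lowest in MERTK-KO colons. Prevotellaceae made up 8.19%, 10.7%, 11.2% and 14.1% of counts in the 4 MERTK-KO+DSS mice. They made up 0.870%, 1.75%, 1.34% and 0.445% in MERTK-KO mice. In WT+DSS mice the shares were 3.67%, 6.29%, 4.15% and 9.29%, and in WT mice 4.03%, 3.62%, 4.70% and 6.23%. All 4 MERTK-KO mice lay below every other mouse, while WT+DSS and WT mice overlapped. By mean share the family ranked 3 among all families in MERTK-KO+DSS, 9 in MERTK-KO, 5 in WT+DSS and 5 in WT.

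**Figure D1:**
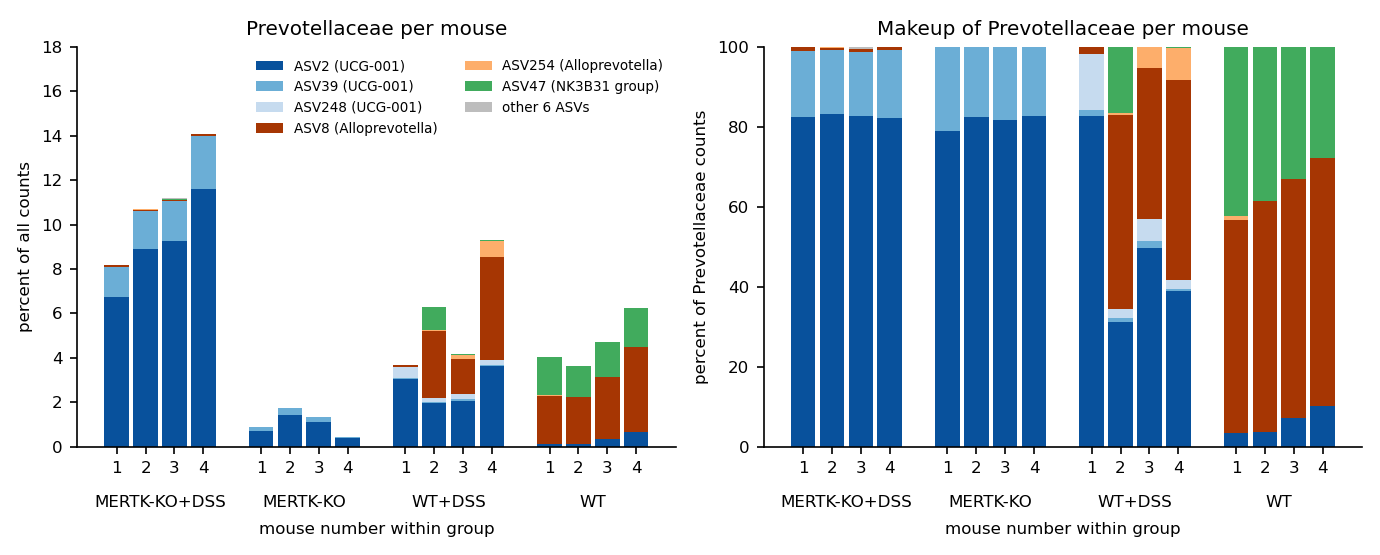
Prevotellaceae in each mouse, as percent of all counts (left) and as the makeup of the family's own counts in percent (right). Each stacked bar is 1 mouse and each colour 1 ASV: blue shades are UCG-001, orange and brown Alloprevotella, green NK3B31_group. MERTK-KO+DSS and MERTK-KO bars are nearly all blue, WT bars are mostly brown and green, and the 4 WT+DSS bars differ from each other.

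The family was higher in MERTK-KO+DSS than in MERTK-KO mice. The mean share was 11.0% ± 2.43 in MERTK-KO+DSS mice and 1.10% ± 0.567 in MERTK-KO mice (SD, n = 4 each), a 10.0-fold difference with no overlap. The log2 fold change fitted by edgeR across the 57 families tested was 3.32 ± 0.40 (SE), with an adjusted p of 3.91e-07. The exact permutation test of the shares gave p = 0.0286, the smallest that 4 against 4 mice allow. In this contrast 42.1% of tested families passed the threshold (an adjusted p under 0.05, used throughout), so a call alone was common, and the median log2 fold change over families was 0.21.

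In wild-type mice the family's share did not pass the test, with 5.85% ± 2.56 in WT+DSS and 4.65% ± 1.15 in WT mice (SD, n = 4 each). The log2 fold change was 0.33 ± 0.36 (SE), with an adjusted p of 0.512, where 26.3% of families passed. The difference between both DSS effects, tested as an interaction, was 2.99 ± 0.52 on the log2 scale (adjusted p = 0.000195), and 14.0% of families had such an interaction. The whole family thus differed more with DSS in MERTK-KO than in wild-type mice.

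On water the family was 4.21-fold lower in MERTK-KO than in WT mice, and no mouse overlapped. The log2 fold change was -2.08 ± 0.38 (SE), the adjusted p was 0.000131 and the exact permutation p was 0.0286. For this contrast 35.1% of families passed, and the median family lay at -0.89. On centred log-ratios, which measure each taxon against the mean of all taxa, the difference shrank to -0.62 and -0.795 with pseudocounts of 0.5 and 1 (adjusted p = 0.247 and 0.134), so this call depends on the scale.

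On DSS the mean was 1.89-fold higher in MERTK-KO+DSS than in WT+DSS mice, but WT+DSS mouse 4 overlapped with the MERTK-KO+DSS mice. The log2 fold change of 0.92 ± 0.36 (SE) missed the threshold (adjusted p = 0.0667; 24.6% of families passed), and the exact permutation p was 0.0571. It passed without WT+DSS mouse 4 (1.23, adjusted p = 0.0265) and with TMM scaling (1.30, adjusted p = 0.0323). The genera within the family differed between genotypes in opposite directions, as given next.

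**Figure D2:**
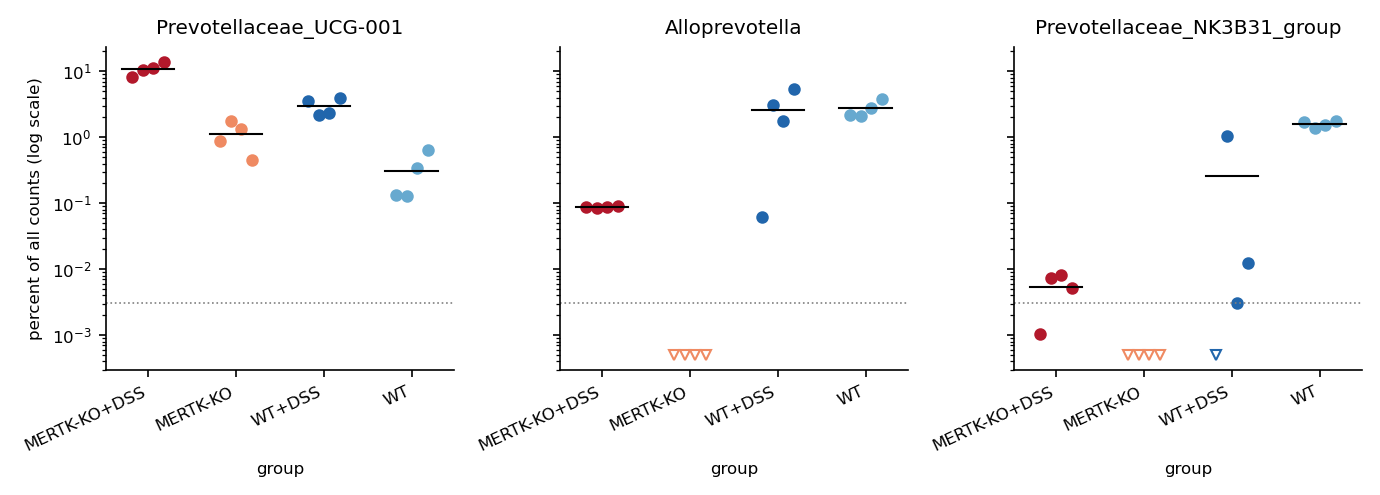
Share of counts of the 3 larger genera in each mouse, on a log axis in percent. Points are mice, black bars are group means, open triangles are mice with no count and the dotted line is the limit of 3 counts (0.00311%). UCG-001 has a point for every mouse, Alloprevotella and NK3B31_group have only triangles in MERTK-KO mice, and 1 WT+DSS mouse stands above the other 3 for NK3B31_group.

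UCG-001 was the genus that rose with DSS in both genotypes. Its shares were 8.10% to 14.0% in MERTK-KO+DSS mice (mean 11.0% ± 2.42) and 0.445% to 1.75% in MERTK-KO mice (1.10% ± 0.567). They were 2.17% to 3.89% in WT+DSS mice (3.01% ± 0.864) and 0.131% to 0.638% in WT mice (0.310% ± 0.239; SD, n = 4 each). The 4 group means stood in the order MERTK-KO+DSS, WT+DSS, MERTK-KO and WT, and of these neighbours only MERTK-KO and WT overlapped.

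In MERTK-KO mice UCG-001 was 9.93-fold higher on DSS than on water (log2 3.31 ± 0.56 SE, adjusted p = 0.000197). In wild-type mice it was 9.70-fold higher on DSS than on water (log2 3.28 ± 0.55 SE, adjusted p = 0.000591), or 15.0-fold without WT mouse 4. The difference between these DSS effects was 0.03 ± 0.73 (SE) with an adjusted p of 1.0, an interval too wide to show that the genotypes responded alike. MERTK-KO mice had more of the genus under both conditions. The ratio was 3.56-fold on water (MERTK-KO over WT, log2 1.83 ± 0.52 SE, adjusted p = 0.0142; 5.49-fold without WT mouse 4) and 3.64-fold on DSS (MERTK-KO+DSS over WT+DSS, log2 1.86 ± 0.52 SE, adjusted p = 0.0157). These 4 calls held under every alternative scaling, filter and tool run and without any 1 mouse.

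Among the 123 genus-level groups tested, 32.5% passed for DSS in MERTK-KO mice, 31.7% for DSS in wild-type mice, 39.8% for genotype on water, 22.0% for genotype on DSS and 8.94% for the interaction. Of the 4 Prevotellaceae genera, 3 had enough counts to be tested. UCG-001 and Alloprevotella rose in MERTK-KO+DSS against MERTK-KO mice, and UCG-001 alone passed in WT+DSS against WT mice. Under both conditions UCG-001 was higher and the other 2 tested genera were lower in MERTK-KO mice, while Alloprevotella alone passed for the interaction. For NK3B31_group on DSS this rested on WT+DSS mouse 2, without which the ratio of MERTK-KO+DSS to WT+DSS was 1.05.

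Within UCG-001, ASV2 carried 84.7% of the genus and was the ASV with rank 2 of all 1901 by total counts. It was the one member of the family found in all 4 groups and all 16 mice. ASV2 had 6521, 8585, 8932 and 11178 counts in MERTK-KO+DSS mice and 663, 1394, 1059 and 355 in MERTK-KO mice. It had 2930, 1899, 1985 and 3498 counts in WT+DSS mice and 130, 126, 325 and 615 in WT mice. Each DSS group lay above its water group, and MERTK-KO+DSS lay above WT+DSS without overlap.

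The rise of ASV2 with DSS was 10.1-fold in MERTK-KO (adjusted p = 0.00167) and 8.62-fold in WT mice (adjusted p = 0.00241; 13.3-fold without WT mouse 4), by edgeR across 1056 ASVs. ASV2 was 2.90-fold higher in MERTK-KO than in WT mice on water (adjusted p = 0.0310; 4.48-fold without WT mouse 4) and 3.42-fold higher in MERTK-KO+DSS than in WT+DSS mice (adjusted p = 0.0246). Both DSS calls held under every alternative run, but the genotype calls did not. The water call ended without MERTK-KO mouse 2 or 3 or WT mouse 1 or 2 (adjusted p = 0.0619 to 0.0899), and the DSS call without MERTK-KO+DSS mouse 4 or WT+DSS mouse 2 or 3 (0.0560 to 0.0580).

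ASV39, the next most abundant variant of UCG-001, was found in MERTK-KO mice and hardly in wild-type mice. It had 1290, 1640, 1721 and 2330 counts in MERTK-KO+DSS mice and 176, 295, 238 and 74 counts in MERTK-KO mice. WT+DSS mice had 47, 56, 70 and 47 counts, and all 4 WT mice had 0. The 4 groups did not overlap, and MERTK-KO mice on water had more of ASV39 than WT+DSS mice.

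ASV39 was at least 65.3-fold higher in MERTK-KO than in WT mice on water (3 counts per library as the limit for WT; adjusted p = 1.36e-06). It was 31.7-fold higher in MERTK-KO+DSS than in WT+DSS mice (adjusted p = 0.000262). With DSS it was 8.92-fold higher in MERTK-KO+DSS than in MERTK-KO mice (adjusted p = 0.00448). In WT+DSS mice it was at least 18.3-fold higher than in WT mice (adjusted p = 2.96e-05), a call that rests on 47 to 70 counts per mouse.

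ASV248 was the third tested variant of UCG-001 and was found only in WT+DSS mice among these 16. It had 498, 136, 229 and 203 counts there and 0 in every MERTK-KO+DSS, MERTK-KO and WT mouse. ASV248 was at least 88.8-fold higher in WT+DSS than in WT mice (adjusted p = 0.00521), and at least 88.8-fold lower in MERTK-KO+DSS than in WT+DSS mice (adjusted p = 0.00312). It passed the low-count filter through WT+DSS mice alone, so it had to differ from the other groups once it was tested, and these p-values add nothing to the counts. The edgeR interaction of ASV248, with 3 groups at 0, had no usable SE and an adjusted p of 1.0, whereas DESeq2 gave 0.000554 and centred log-ratios gave 2.71e-07 and 4.13e-07.

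The proportion of ASV39 to ASV2 did not overlap between the genotypes. The ratios of these variants were chosen after their values were seen and are given with no test. Per 100 counts of ASV2, ASV39 had 19.8, 19.1, 19.3 and 20.8 counts in MERTK-KO+DSS mice and 26.6, 21.2, 22.5 and 20.9 in MERTK-KO mice. It had 1.60, 2.95, 3.53 and 1.34 in WT+DSS mice and 0 in WT mice, where 3 counts would correspond to 0.488 to 2.38. The MERTK-KO+DSS mice all lay below the MERTK-KO mice, by means of 19.8 ± 0.785 and 22.8 ± 2.62 (SD, n = 4 each), with the highest MERTK-KO+DSS and the lowest MERTK-KO mouse at 20.84 and 20.85. ASV248 had 17.0, 7.16, 11.5 and 5.80 counts per 100 of ASV2 in WT+DSS mice.

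**Figure D3:**
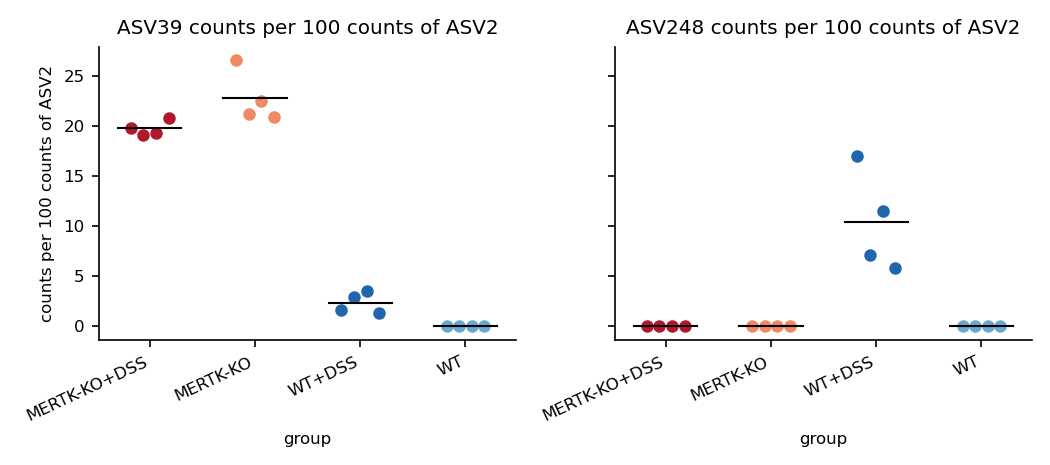
Counts of ASV39 and of ASV248 per 100 counts of ASV2 in each mouse, with 1 point per mouse and black bars for group means. ASV39 lies between 19.1 and 26.6 in all MERTK-KO+DSS and MERTK-KO mice and at most at 3.53 in WT+DSS and WT mice, and ASV248 is above 0 in WT+DSS mice alone.

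Alloprevotella showed the reverse distribution and was a genus of the wild-type mice. It had 85, 82, 84 and 88 counts in MERTK-KO+DSS mice and 0 in all 4 MERTK-KO mice. It had 59, 2979, 1717 and 5204 counts in WT+DSS mice and 2113, 2025, 2712 and 3720 in WT mice. WT+DSS mouse 1 was as low as the MERTK-KO+DSS mice, and the other 3 WT+DSS mice spanned the WT range and beyond.

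On water Alloprevotella was at least 881-fold lower in MERTK-KO than in WT mice (adjusted p = 3.23e-06). On DSS it was 29.4-fold lower in MERTK-KO+DSS (0.0879% ± 0.00259) than in WT+DSS mice (2.58% ± 2.25; SD, n = 4 each), with an adjusted p of 0.00203, and 18.7-fold lower without WT+DSS mouse 4. In wild-type mice no difference with DSS was detected (2.58% ± 2.25 in WT+DSS and 2.74% ± 0.809 in WT, adjusted p = 0.953).

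In MERTK-KO+DSS mice the genus was at least 28.2-fold higher than in MERTK-KO mice (adjusted p = 0.000119), with an interaction of adjusted p = 0.00136. This rise amounted to 82 to 88 counts per mouse. Such low counts were shared with many other ASVs. Of the 87 ASVs with 0 counts in MERTK-KO mice and at least 0.1% in WT+DSS mice, 67 had counts in MERTK-KO+DSS mice. Over all 87, those without counts included, the median was 2.80% of the WT+DSS mean.

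The main variant of Alloprevotella, ASV8, stood at 3.56% of its WT+DSS mean in MERTK-KO+DSS mice, and ASV39 of UCG-001 stood at 3.15% of its MERTK-KO+DSS mean in WT+DSS mice. An alternative run set each ASV to 0 in a DSS group where its mean was under 5% of the other DSS group's mean. The DSS rise of Alloprevotella in MERTK-KO mice and that of ASV39 in wild-type mice were then no longer called (adjusted p = 1.0 each). The interactions of Alloprevotella, ASV8 and ASV39 were not called either (adjusted p = 1.0 each). This run removed all Alloprevotella counts from MERTK-KO+DSS mice and all ASV39 counts from WT+DSS mice, whose water groups had 0 of them. The loss of these calls thus follows from the run's construction and shows only that they rest on the low counts. Where these low counts come from was not tested.

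ASV8 held 95.0% of Alloprevotella and rank 8 of all ASVs by total counts. It had 85, 63, 84 and 88 counts in MERTK-KO+DSS mice, 0 in MERTK-KO mice, 59, 2939, 1512 and 4478 in WT+DSS mice and 2073, 2025, 2712 and 3718 in WT mice. Its contrasts followed those of the genus. ASV8 was at least 877-fold lower in MERTK-KO than in WT mice (adjusted p = 1.08e-05), 28.1-fold lower in MERTK-KO+DSS than in WT+DSS mice (adjusted p = 0.00339) and at least 26.7-fold higher in MERTK-KO+DSS than in MERTK-KO mice (adjusted p = 0.000423).

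ASV254, a lesser variant of Alloprevotella, varied mostly between mice. It had 0, 19, 0 and 0 counts in MERTK-KO+DSS mice, 0 in MERTK-KO mice, 0, 40, 205 and 726 in WT+DSS mice and 40, 0, 0 and 0 in WT mice. None of its contrasts passed in the edgeR fit, where the lowest adjusted p was 0.0855 (MERTK-KO against WT). Its mean was 24.3-fold higher in WT+DSS than in WT mice (adjusted p = 0.237), 8.17-fold without WT+DSS mouse 4 and at least 80.9-fold without WT mouse 1. In MERTK-KO+DSS mice its mean was 51.1-fold lower than in WT+DSS mice (adjusted p = 0.09998 by edgeR), 17.2-fold without WT+DSS mouse 4 and at least 80.9-fold without MERTK-KO+DSS mouse 2. That contrast passed on centred log-ratios (adjusted p = 0.0498 and 0.0404) and with the low counts set to 0 (0.0291). The last run removed the 19 counts of MERTK-KO+DSS mouse 2, which widened the difference by construction. The mice with ASV254 were 3 of the 4 WT+DSS mice, 1 WT mouse and 1 MERTK-KO+DSS mouse. It met the filter of 3 libraries only through WT+DSS mice, where it was highest, so these passes add nothing to the counts.

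NK3B31_group was carried by a single variant, ASV47, and was plentiful in WT mice alone. It had 1, 7, 8 and 5 counts in MERTK-KO+DSS mice and 0 in MERTK-KO mice. It had 0, 999, 3 and 12 counts in WT+DSS mice and 1644, 1345, 1498 and 1674 in WT mice. All WT mice lay above every other mouse, and WT+DSS mouse 2 lay far above the other WT+DSS mice.

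On water NK3B31_group was at least 513-fold lower in MERTK-KO than in WT mice (adjusted p = 0.00143). The comparisons that involve WT+DSS mice turned on mouse 2. WT+DSS (0.263% ± 0.515) and WT mice (1.60% ± 0.157; SD, n = 4 each) differed 6.08-fold with an adjusted p of 0.218, although the groups did not overlap. Without WT+DSS mouse 2 the genus was 308-fold lower in WT+DSS than in WT mice (adjusted p = 0.000589), and centred log-ratios with all mice gave adjusted p-values of 0.00386 and 0.00245.

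NK3B31_group was 48.3-fold lower in MERTK-KO+DSS than in WT+DSS mice (adjusted p = 0.0350), but without WT+DSS mouse 2 the ratio was 1.05 (MERTK-KO+DSS over WT+DSS, adjusted p = 1.0). This call was also lost on centred log-ratios (adjusted p = 0.648 and 0.540) and without any 1 MERTK-KO+DSS mouse (0.0715 to 0.0986). The difference between MERTK-KO+DSS and MERTK-KO mice, 1 to 8 counts against 0, did not pass (adjusted p = 0.102; 0.0279 in a fit of these groups alone), nor did the interaction (adjusted p = 0.1002). The interaction passed without WT+DSS mouse 2 (adjusted p = 0.000139) and on centred log-ratios (0.00539 and 0.00595).

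The remaining 6 members were rare and were not tested. Prevotella, the genus that gives the family its name, had 3 counts of ASV1579 in WT mouse 1 and 2 counts of ASV1593 in WT+DSS mouse 1. ASV1069 of UCG-001 had 48 counts, all in MERTK-KO+DSS mouse 3. ASV1659 of UCG-001 and ASV1723 and ASV1777 of Alloprevotella had 1 count each. Prevotella was therefore at or under the limit of 3 counts in every mouse.

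Of the 12 member ASVs, 6 passed the filter of at least 10 counts in all and any count in at least 3 libraries. DSS in MERTK-KO mice gave 3 that rose (ASV2, ASV8 and ASV39), where 13.4% of all 1056 tested ASVs passed. DSS in wild-type mice gave 3 that rose (ASV2, ASV39 and ASV248, the last tested through WT+DSS mice alone), against 16.9% of all ASVs. MERTK-KO against WT on water gave 2 higher (ASV2 and ASV39) and 2 lower (ASV8 and ASV47), against 52.8%. MERTK-KO+DSS against WT+DSS gave 2 higher (ASV2 and ASV39) and 3 lower (ASV8, ASV47 and ASV248), against 37.7%. The lower value of ASV47 rested on WT+DSS mouse 2. The interaction gave 1 positive (ASV8) and 1 negative (ASV39), against 5.59%. ASV248 was tested only through WT+DSS mice, the only group where it was found. The numbers of called ASVs describe the members and support nothing. The genotype numbers stand beside backgrounds in which a large share of all ASVs passed.

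The genera that made up the family differed by genotype. UCG-001 formed 98.9% to 99.3% of the family's counts in MERTK-KO+DSS mice and 100% in MERTK-KO mice. It formed 98.3%, 34.5%, 57.0% and 41.8% in the 4 WT+DSS mice and 3.34%, 3.60%, 7.17% and 10.2% in the 4 WT mice. Alloprevotella formed 54.3% to 61.9% and NK3B31_group 27.9% to 42.3% of the family in WT mice. WT+DSS mouse 1 had nearly as much UCG-001 in its family as the MERTK-KO mice, but it held ASV248 and little ASV39.

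The 2 MERTK-KO groups held fewer variants of the family in effect. The effective number of ASVs (the exponential of the Shannon index within the family) was 1.65 ± 0.0167 in MERTK-KO+DSS, 1.61 ± 0.0402 in MERTK-KO, 2.71 ± 0.657 in WT+DSS and 2.35 ± 0.0847 in WT mice (SD, n = 4 each). It was lower in MERTK-KO+DSS than in WT+DSS mice and in MERTK-KO than in WT mice (exact permutation p = 0.0286 each, two-sided). The first of these was lost without any 1 MERTK-KO+DSS mouse (exact permutation p = 0.0571). With DSS no difference passed in MERTK-KO (exact permutation p = 0.114; 0.0286 without MERTK-KO mouse 1) or wild-type mice (exact permutation p = 0.371; 0.0286 without WT+DSS mouse 1).

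Composition within the family was also compared by Bray-Curtis distances between mice, which run from 0 (same proportions) to 1 (none shared). The mean distance was 0.0225 between MERTK-KO+DSS and MERTK-KO mice, 0.551 between WT+DSS and WT mice, 0.939 between MERTK-KO and WT mice and 0.474 between MERTK-KO+DSS and WT+DSS mice. The share of the squared distances that lay between groups (R2, from 0 to 1) was 0.483, 0.684, 0.992 and 0.609 in these pairs (exact permutation p = 0.0286 each, the smallest that 35 splits allow). Without any 1 MERTK-KO+DSS mouse the exact permutation p was 0.0571 for genotype on DSS and 0.0857 to 0.114 for DSS in MERTK-KO mice (0.0571 without MERTK-KO mouse 1), and without any 1 WT mouse it was 0.0571 for DSS in wild-type mice. Within WT+DSS the mean distance between mice was 0.369, against 0.00921 within MERTK-KO+DSS, 0.0201 within MERTK-KO and 0.0866 within WT. By proportions, the distance with DSS was thus smaller in MERTK-KO than in wild-type mice, a difference that was not itself tested. By presence or absence of variants (Jaccard distance) it was not, with a mean of 0.550 between MERTK-KO+DSS and MERTK-KO mice (R2 0.895) and 0.572 between WT+DSS and WT mice (R2 0.521; exact permutation p = 0.0286 each). The Jaccard distance gives the low counts of ASV8 and ASV47 in MERTK-KO+DSS mice the same weight as abundant variants.

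The order Bacteroidales as a whole had close means in the 4 groups, with 41.2% ± 6.00 of counts in MERTK-KO+DSS, 40.9% ± 2.70 in MERTK-KO, 40.7% ± 1.83 in WT+DSS and 40.2% ± 4.12 in WT mice (SD, n = 4 each). Prevotellaceae formed 26.6% ± 2.89 of the order's counts in MERTK-KO+DSS, 2.73% ± 1.46 in MERTK-KO, 14.3% ± 5.88 in WT+DSS and 11.5% ± 1.91 in WT mice. The exact permutation p was 0.0286 for DSS in MERTK-KO mice, for genotype on water and for genotype on DSS, and 0.429 for DSS in wild-type mice. Within its order the family was thus higher in MERTK-KO+DSS than in WT+DSS mice with no overlap, although its share of all counts missed the threshold. Without any 1 MERTK-KO+DSS mouse the exact permutation p of this difference was 0.0571.

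Of the 7 families of the order, 6 were tested. Muribaculaceae, the main Bacteroidales family of the mouse gut, fell with DSS in both genotypes, to 14.3% ± 2.48 in MERTK-KO+DSS against 24.5% ± 2.86 in MERTK-KO mice (log2 -0.78, adjusted p = 0.000792) and to 17.9% ± 3.91 in WT+DSS against 27.1% ± 2.65 in WT mice (log2 -0.60, adjusted p = 0.00889). Rikenellaceae differed in the sense opposite to Prevotellaceae on water. They were higher in MERTK-KO (11.4% ± 2.35) than in WT mice (2.83% ± 0.847; log2 2.01, adjusted p = 2.09e-06), and their interaction was negative (log2 -1.18, adjusted p = 0.0357).

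In MERTK-KO mice, Prevotellaceae and Marinifilaceae (log2 2.10, adjusted p = 0.00568) rose with DSS and Muribaculaceae fell, while Bacteroidaceae, Rikenellaceae and Tannerellaceae did not pass. The median log2 fold change of the 6 families was 0.28, beside 0.21 over all families. In wild-type mice Bacteroidaceae (log2 1.43, adjusted p = 0.0111) and Rikenellaceae (log2 0.92, adjusted p = 0.00889) rose, Muribaculaceae fell, and the median was 0.62, beside 0.19 over all families. On water Rikenellaceae were higher and Prevotellaceae and Marinifilaceae (log2 -1.86, adjusted p = 0.0181) lower in MERTK-KO mice, with a median of -0.32 beside -0.89. On DSS Rikenellaceae were higher (log2 0.83, adjusted p = 0.0264) and Bacteroidaceae lower (log2 -1.15, adjusted p = 0.0454) in MERTK-KO+DSS than in WT+DSS mice, with a median of -0.43 beside -0.15. For the interaction Prevotellaceae passed upward and Rikenellaceae downward, with a median of -0.11 beside 0.36.

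**Figure D4:**
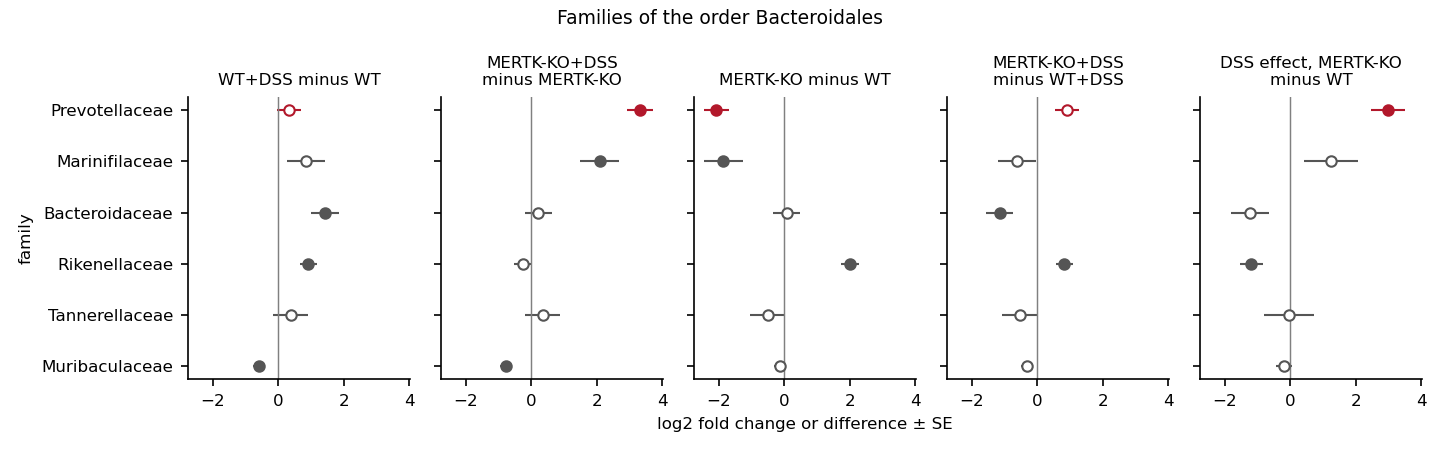
Log2 fold changes of the 6 tested Bacteroidales families in the 5 contrasts, from the edgeR fit across families, with bars of 1 SE. Filled points have an adjusted p under 0.05. Prevotellaceae have the highest value for DSS in MERTK-KO mice (3.32) and for the interaction (2.99), and the lowest for MERTK-KO against WT on water (-2.08).

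Outside the family, the genus-level groups whose ratio to the family sum varied least over the 16 mice were Parabacteroides, Clostridia_UCG-014, Odoribacter, Colidextribacter and unclassified Oscillospiraceae. The measure was the variance of the log2 ratio to the family, which was 1.48, 1.62, 1.77, 1.81 and 2.01 for these groups in this order and 5.68 at the median of 120 groups. The log2 counts of the family itself had a variance of 1.98 over the mice, so only the first 4 of these ratios varied less than the family did. Odoribacter, for one, had means of 2.46% in MERTK-KO+DSS, 0.574% in MERTK-KO, 3.77% in WT+DSS and 2.09% in WT mice. Parabacteroides (1.63%) and Clostridia_UCG-014 (3.11%) also had their highest means in WT+DSS mice, unlike the family. Colidextribacter (2.68%) and unclassified Oscillospiraceae (3.89%) had theirs in MERTK-KO+DSS mice, as the family did. These are descriptions over 16 mice that share 4 groups.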

How the data were processed

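The deposited data were 2 tables with identical counts of 1901 ASVs in 16 colon libraries, 1 of them with a taxonomy. Each library held 96469 whole counts, and the deposited names call the table even. That the authors brought the libraries to this total was inferred from these. The sources used here do not give the original depth, the amplified region, the denoising tool or the reference taxonomy. The labels' protocols describe RNA-seq libraries and the submitters' processing notes list GRCm38 and mm10, which do not apply to 16S counts. The design text names 16S sequencing, and the counts were taken as that. Equal totals remove depth differences but keep shares coupled. Libraries of 1 group differed beyond sampling noise (lowest chi-square per degree of freedom 40.9).

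Counts were summed per family and per genus-level group (ASVs with no genus under their lowest named rank). Features with at least 10 counts over all libraries together, and any count in at least 3 libraries, were tested with edgeR 4.0.16 in R 4.3.3. The fit used glmQLFit with robust=TRUE and glmQLFTest, with library total as the only scaling, 16 mice and 1 mean per group. Benjamini-Hochberg adjustment ran over all tested features of a level (57 families, 123 genus-level groups, 1056 ASVs), with an FDR of 0.05. Positive log2 fold changes mean higher on DSS or in MERTK-KO mice; the interaction is the DSS effect in MERTK-KO minus that in WT mice. The SE is the log2 fold change over the square root of F. Folds are ratios of mean counts; against a group at 0 they use 3 counts per library and are lower bounds. The script was tested on simulated data. Shares and effective numbers were compared by two-sided exact permutation (70 arrangements). For Bray-Curtis and Jaccard distances the exact permutation p was the share of the 35 splits with an R2 at least as high.

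The replicate numbers were not used as pairs in the main fit. The 24 correlations of same-numbered mice across groups ran from -0.187 to 0.19, with 4 over 0.1. Whether the numbers pair mice cannot be told from these. Named were the family, its genera, its ASVs with a mean of at least 0.1% in a group, Alloprevotella and NK3B31_group ASVs with at least 10 counts, the other Bacteroidales families and the 5 groups closest to the family in log-ratio variance (pseudocount 0.5). Members, lists and tests were chosen with earlier results of these data known. Alternatives were TMM, median-ratio size factors, centred log-ratios in limma 3.58.1 (pseudocounts 0.5 and 1), DESeq2 1.42.0, other filters, the compared groups alone, a replicate block, low counts set to 0, the Bacteroidales total, Jaccard distance, the inverse Simpson index, and leaving out each mouse.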

Additional observations from a re-analysis of the deposited data

Results flagged for a closer look

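Among 43 sets of 4 mice examined, 6 held a mouse far from the other 3 (by Dixon's gap criterion), where chance gives about 1 in 20. WT+DSS mouse 2 had 1.036% of NK3B31_group, which is the same value as that of its one variant ASV47, against 0% to 0.0124% in the other WT+DSS mice. MERTK-KO+DSS mouse 2 was low for ASV8 (0.0653%) and the one MERTK-KO+DSS mouse with ASV254 (0.0197%). WT mouse 1 was the one WT mouse with ASV254 (0.0415%), and in WT mouse 4 Prevotellaceae formed 14.3% of Bacteroidales counts, above the other WT mice.

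The effect of DSS differed between the genotypes for the family (log2 2.99, adjusted p = 0.000195), Alloprevotella (adjusted p = 0.00136), ASV8 (adjusted p = 0.00121) and ASV39 (adjusted p = 0.00166), each by the edgeR interaction. The last 3 involve groups at 0 counts on water and low counts on DSS, so they rest on those low counts: setting them to 0 ended the calls by construction. For UCG-001, which was present in every mouse, no such difference was detected.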

How the results depend on the processing

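Of 1250 alternative values for 71 results, 1120 stayed the same. For tests this means no reversed direction and the same side of the threshold. For numbers of called ASVs it means a number close to the main one. Some values could not change, such as those of ASV248 between MERTK-KO+DSS and MERTK-KO mice, which had 0 counts in both groups. The number 1120 is therefore not a measure of robustness. Against the library total, centred log-ratios moved the median family by 1.60 and 1.42 on the log2 scale for MERTK-KO against WT on water, and the family's difference there was -0.616 and -0.795, not called. For MERTK-KO+DSS against WT+DSS the family passed with TMM (1.30; median family moved by 0.41), DESeq2 (1.06), centred log-ratios (1.41 and 1.38) and the compared groups alone (0.916), with 0.747 to 1.23 without 1 mouse. The UCG-001 interaction was negative with median-ratio factors (-0.0255), DESeq2 (-0.0255), centred log-ratios (-0.877 and -0.761), the replicate block (-0.216) and the Bacteroidales total (-0.0377), and ran from -0.592 to 0.349 without 1 mouse; it was never called.

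Other contrasts that were not called changed sign. They were Alloprevotella for DSS in wild-type mice (adjusted p = 1.0 with median-ratio factors and DESeq2, 0.521 to 0.992 without 1 mouse), ASV8 for the same contrast (0.902 with TMM, 1.0 with median-ratio factors and DESeq2, 0.646 to 1.0 without 1 mouse), and the interactions of ASV2 (0.9998 with TMM, 0.685 and 0.743 on centred log-ratios, 1.0 with the replicate block, 0.9998 to 0.9999 without 1 mouse) and ASV254 (0.296 and 0.272 on centred log-ratios, 1.0 with the block, 0.9999 with low counts set to 0, 0.9998 to 0.9999 without 1 mouse). Called contrasts changed sign as well. With low counts set to 0 the interaction of ASV39 turned positive (0.9999), since its WT+DSS counts were then 0. For MERTK-KO+DSS against WT+DSS, the adjusted p without 1 mouse ran from 0.0146 to 1.0 for NK3B31_group and from 0.0205 to 1.0 for ASV47, both reversed without WT+DSS mouse 2. ASV2 lost both genotype calls with no filter, which tests more ASVs (adjusted p = 0.103 on water and 0.0797 on DSS).

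Member ASVs called for MERTK-KO+DSS against WT+DSS numbered 3 to 5 without 1 mouse, and for the interaction 4 on centred log-ratios (both pseudocounts) and 0 with low counts set to 0. The difference in effective number with DSS was 0.185 to 0.676 in wild-type mice without 1 mouse. In MERTK-KO mice it was -0.0386 with low counts set to 0, -0.0246 as inverse Simpson index and 0.0302 to 0.0594 without 1 mouse. Between MERTK-KO+DSS and WT+DSS it was -0.886 as inverse Simpson index (exact permutation p = 0.0571) and -1.38 to -0.884 without 1 mouse. R2 without 1 mouse was 0.642 to 0.848 for DSS in wild-type, 0.425 to 0.610 for DSS in MERTK-KO and 0.557 to 0.932 for genotype on DSS, and the family's share of Bacteroidales differed by 10.5 to 14.9 percentage points in the last contrast. Several of these left the threshold with 3 mice against 4, and the cause was not tested for any change given here. The replicate block moved NK3B31_group across the threshold for DSS in wild-type mice (adjusted p = 0.0338), for the interaction (0.0237) and for genotype on DSS (0.471); a mouse correlated best with its own number in 6 of 48 comparisons. Members under 3 counts in a mouse cannot be told from absence at 96469 counts per library.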

Other observations

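Helicobacter, a genus of mucus-dwelling bacteria, had the count pattern closest to Alloprevotella of the 120 genus-level groups outside the family. It held 0.182% of counts in MERTK-KO+DSS, 0.000777% in MERTK-KO, 4.58% in WT+DSS and 5.99% in WT mice. The variance of its log2 ratio to Alloprevotella was 1.65 over the 16 mice, beside 28.5 at the median group and 26.4 for the log2 counts of Alloprevotella itself. For UCG-001 the closest group was Mucispirillum, also a mucus dweller, with 2.88%, 0.390%, 0.83% and 0.266% in MERTK-KO+DSS, MERTK-KO, WT+DSS and WT mice and a ratio variance of 1.76, beside 9.27 at the median group. These pairs were named after their values were seen, and both genera of each pair were measured in the same libraries.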
